A study of Gallus gallus with 6 samples.

Results

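The genes described here encode alpha keratins, the proteins of desmosomes, and the proteins of adherens, tight and gap junctions, together with the transglutaminases. They were taken by name: keratins (*KRT*), desmosomal cadherins, desmoplakin, plakophilins, plakoglobin and plakins, cadherins and protocadherins, catenins, claudins, occludin and the zonula occludens genes (*TJP*), connexins (*GJ*) and transglutaminases (*TGM*). Of 6534 entries in the first of 2 deposited tables, 31 matched, and of 6534 entries in the second, 68 matched. Because 13 names occur in both, 86 genes are covered.

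RNA-seq was made from growing feathers of untreated, wild type adult chickens (*Gallus gallus domesticus*), in 3 groups: leg feathers, wing contour feathers and neck feathers. The labels give 2 replicates per region, 6 libraries in all, and describe ramogenic epithelium (the zone in which barbs form) with the mesenchymal pulp removed, pooled over 5 feathers. The paper's methods instead name whole follicles or dissected dermal papilla and pulp as the source of RNA. The first table holds replicate 1 of each region as whole numbers whose unit is not stated. The second holds replicate 2 as FPKM (fragments mapped to a gene, scaled for transcript length and library size). Its column names give each region a different chicken number, so if these stand for birds, region and bird cannot be told apart there.

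In skin epithelium, alpha keratins form filaments from pairs of one type I and one type II protein, and basal keratinocytes are known for the pair of keratin 5 and keratin 14, with keratin 15. The filaments are anchored at desmosomes, where desmosomal cadherins bind plakoglobin and plakophilins, which bind desmoplakin. Adherens junctions join cells through classical cadherins such as E-Cadherin, held to actin by β-Catenin and α-catenin. Claudins seal tight junctions, and connexins form the channels of gap junctions. In the growing feather the barbs themselves are built mainly from corneous beta proteins (feather keratins), a separate family that is not part of this set.

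Within each table there is 1 library per region, so a ratio inside a table has no error attached to it and no test. Ratios are given as log2 of (value + 1), which understates the change of low genes. A gene was counted as past the fold where that ratio reached at least 2-fold, among entries with a mean of at least 1. For genes in both tables the regions were also compared with limma over the 6 libraries, with the replicate number, which is also the table, as a block. Those p-values measure only how far the differences between regions disagreed between the tables, a spread that was pooled over genes. That disagreement may be technical, since nothing says that the replicates came from separate birds. The number of sequenced fragments is unknown. The values sum to 3051339 in leg, 1780292 in wing and 4195932 in neck in the first table, and to 805460, 701758 and 792798 FPKM for leg, wing and neck in the second. The median log2 ratio of all entries differed between the tables. In the first table it was -0.08 for wing over neck, -0.31 for leg over neck and -0.23 for leg over wing. In the second table it was 0.39 for wing over neck, -0.03 for leg over neck and -0.44 for leg over wing. Ratios relative to these medians are therefore given beside the plain ones where the difference matters.

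The labels were checked against marker lists. *EPCAM*, an epithelial surface protein, had an FPKM of 688 in leg, 932 in wing and 872 in neck. *TP63*, a transcription factor of stratified epithelium, had 34.0, 48.3 and 35.4 FPKM, so epithelial genes were present in every region. Mesenchyme genes were present as well. The summed FPKM of the 13 of 16 listed mesenchyme genes with a value was 746 in leg, 1373 in wing and 379 in neck, none of them at 0 in all libraries. Of these, 6 had first-table values that summed to 273, 471 and 168. Of 14 blood and endothelium genes, 7 had a value, all in the second table, and summed to 27.9 FPKM in leg, 77.6 in wing and 11.7 in neck. Melanocyte genes summed to 182 in leg, 796 in wing and 262 in neck for 6 genes of the first table. The 8 in the second table summed to 176, 435 and 210.5 FPKM. Among them *TYRP1* went the other way, with 20.2 in leg, 0.203 in wing and 13.7 in neck. *PMEL*, a defining melanocyte gene, was listed at 0 there and at 17, 62 and 24 in the first. Smooth and striated muscle genes summed to 28.9, 69.1 and 25.7 FPKM for 5 genes, and the 1 in the first table had 10, 29 and 17. The epithelium list, which holds some of the genes described here, summed to 716 in leg, 1001 in wing and 801 in neck for 5 of 10 genes in the first table, and to 1232, 2603 and 1409 FPKM for 7 of 10 in the second. The part of these other cells in the results below was not tested, and in tissue RNA fewer cells of a type cannot be told apart from less RNA per cell.

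In wing against neck feathers, the type I keratins *KRT14* and *KRT15* had higher values in wing in the table that lists them. The gap junction gene *GJA1* fell in wing, and 4 tight junction genes had lower values there. Of the 31 genes in the first table, 1 was past the fold upwards and 5 downwards, against 5.45% and 7.85% of all 6534 entries. Relative to the table median the counts were again 1 and 5, with a background of 6.05% and 6.49%. The 5 were *TJP3*, *CLDN8*, *GJA1*, *CLDN17* and *CLDN12*. In the second table only 31 of the 68 genes had a mean of at least 1 FPKM. Of these, 11 were past the fold upwards and 1 downwards, against 15.1% and 1.82% of the 4736 entries with such a mean. Relative to the table median the split was 8 and 3, with a background of 7.75% and 4.08%. *GJA4* and *CDH13* were among the 11, and their means reached 1 FPKM only with the wing value. In both tables at once, *CDH11* was past the fold upwards and *GJA1* downwards, 1 gene each way of 12, where 3.08% and 0.888% of all genes were. The first-table mean of *CDH11* was above the lowest mean of that table, 9.67, only with the wing value. Over both tables, limma called 2 of 12 tested genes higher (*CDH11*, *PCDH10*) and 2 lower (*GJA1*, *KRT20*) in wing. Over all 2140 genes tested it called 20% higher and 8.46% lower. After each library was centred on its median, 2 were higher and 4 lower, with *CLDN1* and *PCDH1* added, where 25.2% and 23.3% of all genes were called. The spread was pooled over all genes in this test. An alternative chosen after seeing the data was a t-test of each gene on its own spread. It called 0 genes of the set and 0 of all genes in any comparison. The unadjusted p of that t-test was under 0.05 for 3 of the 12 in wing with neck, 2 in leg with neck and 5 in leg with wing. Of all 2140 genes, 439, 291 and 712 had such a p in these comparisons.

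Fewer of the genes differed between leg and neck feathers, and fewer of all entries did too. By the first table, *CDH11* alone was past the fold upwards in leg and 0 genes downwards, with a background of 1.79% and 4.38%. Centred on the table median, *CLDN8* joined *CDH11*, giving 2 and 0 against 2.46% and 2.65%. In the second table, 3 were past it upwards (*CDH11* and *CDH5* among them) and 1 downwards (*CLDN10*), with a background of 2.93% and 0.823%, and the centred split was also 3 and 1, against 3.08% and 0.781%. *CDH11* alone was past the fold upwards in both tables and 0 genes downwards, against 0.794% and 0.327%. Limma called *CDH11* higher and *CTNNBIP1* lower, 1 of 12 each way, against 1.82% and 10.8% of all genes, and the same 2 with centring, against 10.5% and 9.44%.

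The comparison of leg with wing shares the wing libraries with that of wing with neck, with *GJA1*, *CLDN8* and *CLDN17* higher in leg and *KRT5*, *KRT14* and *KRT15* lower, but *KRT20* higher. By the first table, 4 genes were past the fold upwards in leg (*CLDN8*, *TJP3*, *GJA1*, *CLDN17*) and 3 downwards (*CDH11*, *KRT5*, *PCDH10*), against 4.79% and 10.7% of all entries. In the second, 2 (*GJB2*, *GJA1*) were past it upwards and 9 downwards, against 2.17% and 14.8%. Relative to the table medians the splits were 5 and 1 in the first table, against 6.9% and 7.01%, and 3 and 3 in the second, against 5.03% and 5.72%. *GJA1* was past the fold upwards and *CDH11* and *PCDH10* downwards in both tables, against 0.841% and 6.26% of all genes. Only *GJA1* was after centring, for which no share of all genes was computed. Limma called 3 genes higher (*GJA1*, *GJB2*, *KRT20*) and 4 lower (*CDH11*, *PCDH10*, *CTNNBIP1*, *JUP*) in leg, against 6.07% and 41.7% of all genes. With centring it called 5 higher and 3 lower, against 27.5% and 27.0% of all genes.

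**Figure D1:**
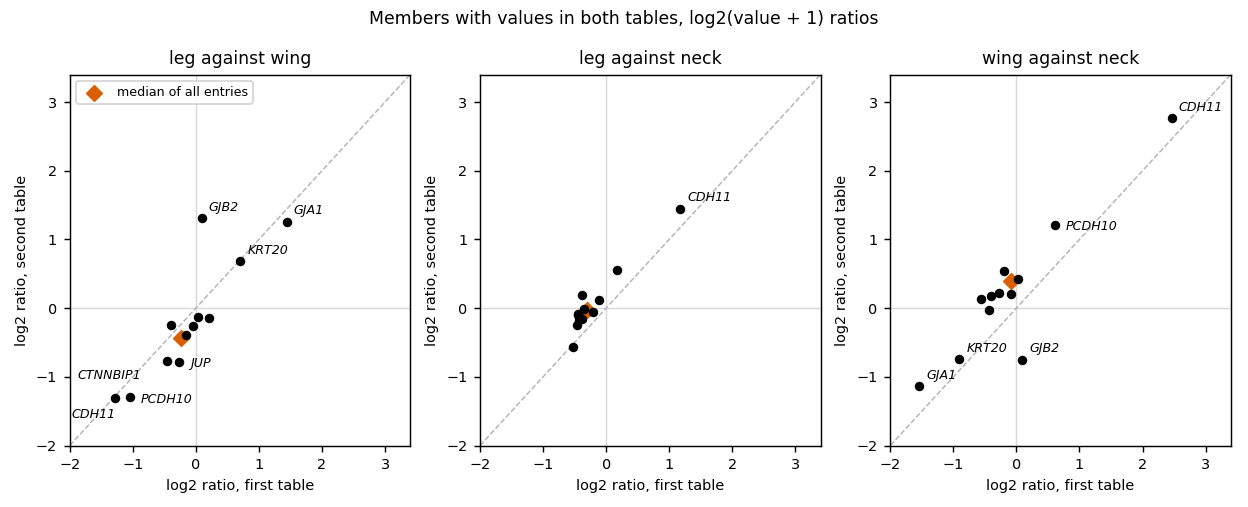
Log2 ratios of (value + 1) in the first table (x axis) and the second table (y axis) for the 12 genes whose mean reached 1 in each table, 1 panel per comparison; each black point is a gene, the diamond is the median of all entries and the dashed line marks equal ratios. *GJA1* and *CDH11* lie near the dashed line in the comparisons with wing, while *GJB2* had leg-against-wing ratios of 0.09 (first) and 1.31 (second).

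Among the type I keratins, *KRT14* and *KRT15* had much higher values in wing than in leg or neck. *KRT14* had an FPKM of 281 in leg, 972 in wing and 275 in neck, a wing-to-neck ratio of 3.53-fold and a log2 ratio of 1.82, or 1.43 relative to the table median. *KRT15* had an FPKM of 133 in leg, 526 in wing and 119 in neck, a ratio of 4.38-fold and a log2 ratio of 2.13, or 1.74 relative to the median. For both, leg and neck lay close together and wing stood apart, with leg-to-neck log2 ratios of 0.03 and 0.15. Both genes have values in the second table only, so the difference was seen in a single wing library. Within each library *KRT14* exceeded *KRT15* by a similar FPKM ratio, 2.12 in leg, 1.85 in wing and 2.30 in neck. RefSeq of the GRCg7b assembly carries the name *KRT15* as an older name of *KRT13*, and lists the gene with no other between it and *KRT19*. Keratins are close paralogs, and how reads shared between them were assigned is not given in the sources used here.

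*KRT5*, the type II partner of keratin 14 in basal keratinocytes, pointed the same way in the first table. Its values were 244 in leg, 519 in wing and 307 in neck, a wing-to-neck log2 ratio of 0.76 and a leg-to-wing log2 ratio of -1.09. Wing was the highest of the 3 libraries, and neck exceeded leg. The second table lists *KRT5* at 0 in all 3 libraries, and *KRT6A*, *KRT7* and *KRT75*, the other type II keratins it holds, also at 0. A 0 in that table can be a failed estimate, and these 4 genes lie side by side in GRCg7b with at most 1 gene between neighbours. *KRT80*, a further type II keratin, had 26, 36 and 27 in leg, wing and neck of the first table, with *KRT5* 54105 bases away on chromosome 33. The 2 genes thus had their highest value in the same library, by log2 wing-to-neck ratios of 0.76 and 0.40.

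Ratios between genes of one library do not depend on scaling by a single factor per library. Whether the first table was scaled in that way is not stated. In FPKM, *KRT14* stood at 2.96 times *CDH1* in leg, 7.76 times in wing and 2.55 times in neck. *KRT15* stood at 1.40, 4.20 and 1.11 times *CDH1* in leg, wing and neck. In the first table, where a ratio between genes can be compared across regions but not read as a relative abundance, that of *KRT5* to *CDH1* was 2.24 in leg, 4.25 in wing and 2.09 in neck. All 3 keratins were therefore highest in wing relative to E-Cadherin also when each library was taken on its own.

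The other type I keratins did not share this pattern. *KRT20*, now named *KRT40* in RefSeq, had first-table values of 12 in leg, 7 in wing and 14 in neck, and an FPKM of 37.1, 22.5 and 38.4. Wing was lowest in both tables. Limma gave a wing-against-neck log2 change of -0.83 ± 0.19 (SE, adjusted p = 1.1e-04) and a leg-against-wing change of 0.70 ± 0.19 (adjusted p = 8.2e-04), while leg against neck was -0.13 ± 0.19 (adjusted p = 0.691). After centring, the wing-against-neck change was -0.96. *KRT222*, a keratin-like gene, had an FPKM of 4.99, 6.19 and 4.47 in leg, wing and neck. *KRT19*, a keratin of simple epithelia in mammals that RefSeq now lists as *KRT24*, stayed under 1 FPKM with 0.801, 0.845 and 0.412. In GRCg7b order *KRT222*, *KRT20*, *KRT15* and *KRT19* follow each other with at most 1 gene between neighbours, so genes close together differed in their wing values.

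**Figure D2:**
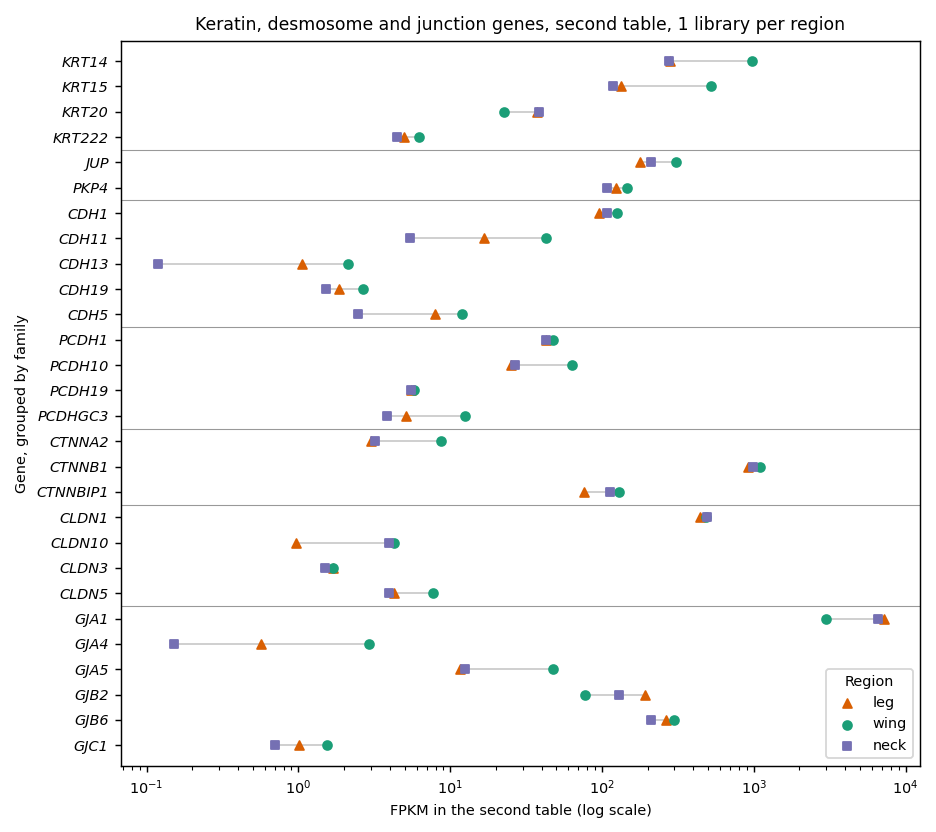
FPKM (log scale) in leg (triangles), wing (circles) and neck (squares) of the second table, 1 library per region, for the genes with a mean of at least 1 that are reported here, grouped by family. *KRT14* at 972 and *KRT15* at 526 in wing stand apart from leg and neck, and *GJA1*, the highest gene in each region, has its lowest value in wing, at 2989.

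Of the 8 desmosomal and plakin genes that the first table holds, 0 were past the fold in any comparison. With the shares of all entries given above, a count of 0 of 8 does not set them apart. *DSP*, which encodes desmoplakin, the link to keratin filaments, had 261 in leg, 217 in wing and 213 in neck. *PKP1*, a plakophilin of stratified epithelium, had 83, 117 and 110, *PKP3* had 40, 42 and 49, and the desmosomal cadherin *DSG2* had 32, 20 and 30. *PPL*, which encodes periplakin, a cytolinker of the cornified envelope, had 142 in leg, 97 in wing and 162 in neck, a wing-to-neck log2 ratio of -0.73. Its relative *EVPL* (envoplakin) had 24, 33 and 31, so that the ratio of *PPL* to *EVPL* was 5.92 in leg, 2.94 in wing and 5.23 in neck. The ratio of *KRT5* to *DSP* was 0.935 in leg, 2.39 in wing and 1.44 in neck.

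Plakoglobin (*JUP*), shared by desmosomes and adherens junctions, had values of 129 in leg, 155 in wing and 178 in neck, and an FPKM of 177, 306 and 210.1. Leg was lowest in both tables, but wing was highest only in the second. Limma called it lower in leg than in wing, with a log2 change of -0.52 ± 0.21 (adjusted p = 0.0245). Relative to the library medians that change was -0.18 with an adjusted p = 0.195, and the call was lost. *PKP4*, a plakophilin found at both junction types, had 122, 161 and 159 in the first table and 123, 146 and 108 FPKM in the second, and no comparison passed the test (adjusted p of 0.162 to 0.791).

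E-Cadherin (*CDH1*, chr11:19093978-19155777 in the first table, whose build is not named there) had values of 109 in leg, 122 in wing and 147 in neck, and an FPKM of 95, 125 and 108. As deposited, leg was lowest in both tables, whereas neck was highest in the first and wing in the second. Relative to the table medians this order did not hold. The wing-to-neck log2 ratio was then -0.18 in both tables. Leg to wing was then 0.07 in the first and 0.05 in the second, and leg to neck -0.12 and -0.14. No difference passed the test, with limma log2 changes of -0.03 ± 0.19 in wing over neck (adjusted p = 0.941), -0.30 ± 0.19 in leg over neck (adjusted p = 0.30) and -0.28 ± 0.19 in leg over wing (adjusted p = 0.22). β-Catenin (*CTNNB1*, chr2:43600783-43622660), which binds its cytoplasmic tail and also acts in Wnt signaling, had 556, 574 and 756 and an FPKM of 919.8, 1104 and 984. Its log2 changes were -0.12 ± 0.27 in wing over neck, -0.27 ± 0.27 in leg over neck and -0.15 ± 0.27 in leg over wing, with adjusted p of 0.531 to 0.789. With centring the changes of *CTNNB1* were -0.25, -0.06 and 0.19, in that order. No change of *CDH1* or *CTNNB1* was called with centring.

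The ratio of *CTNNB1* to *CDH1* was nearly the same in every region of a table. It was 9.68 in leg, 8.81 in wing and 9.14 in neck by FPKM, and 5.10, 4.70 and 5.14 in the first table. *CTNNB1* ranked 103 in leg, 110 in wing and 104 in neck among all genes by FPKM. The ratio of *JUP* to *CDH1* in FPKM was 1.87, 2.44 and 1.95 in leg, wing and neck, and that of *CTNNB1* to *JUP* was 5.19, 3.61 and 4.68.

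Of the remaining catenin entries, *CTNNA1* (αE-catenin, which couples the complex to actin) had 54 in leg, 80 in wing and 82 in neck in the first table. *CTNNA2*, the neural form in mammals, had an FPKM of 3.01, 8.68 and 3.19, a wing-to-neck log2 ratio of 1.21, and *CTNNA3* reached at most 0.108. *CTNNBIP1*, which encodes an inhibitor that keeps β-Catenin from TCF factors, had 26, 36 and 38 in leg, wing and neck, and an FPKM of 75.6, 129.5 and 113. Leg was lowest in both tables. Limma called it lower in leg than in neck, by -0.55 ± 0.17 (adjusted p = 0.0167), and lower in leg than in wing, by -0.61 ± 0.17 (adjusted p = 0.00152). With centring these changes were -0.34 and -0.27 and both calls were kept (adjusted p = 0.033 and 0.0289). *CTNNAL1* (α-catulin) had 15, 12 and 22, and *CTNNBL1*, a splicing-associated protein that shares only part of its name with catenins, had 14, 17 and 15.

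**Figure D3:**
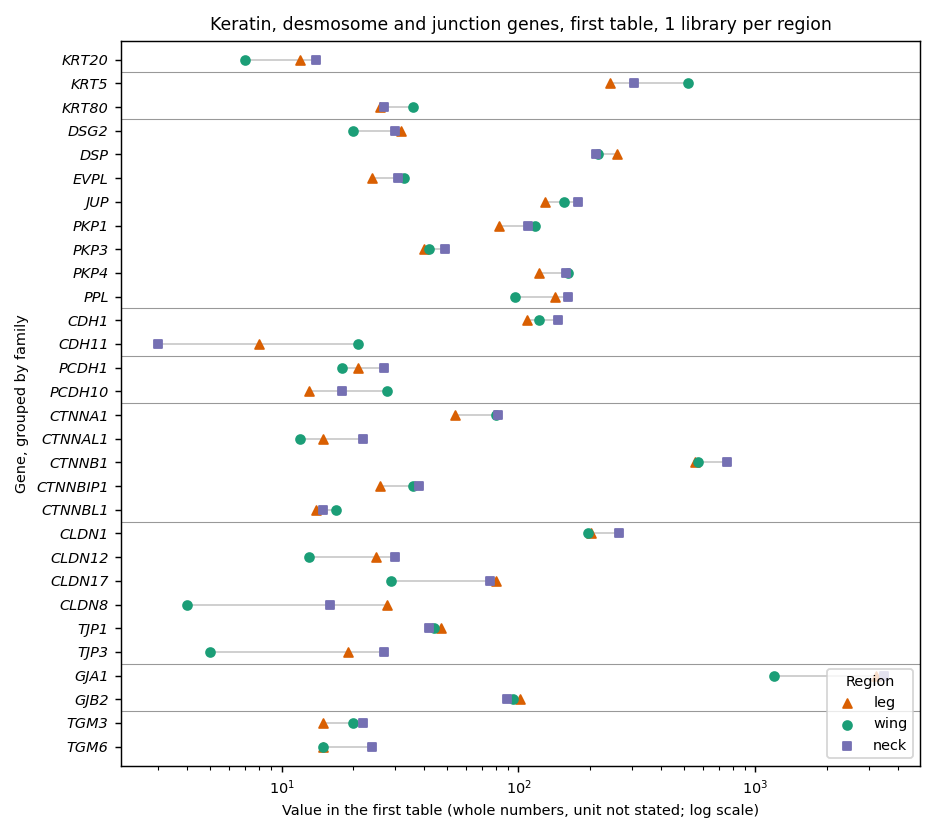
Values in leg (triangles), wing (circles) and neck (squares) of the first table (whole numbers without a stated unit, log scale), 1 library per region, for its genes grouped by family, those not reported here left out. *TJP3*, *CLDN8* and *CLDN17* are lowest in wing, at 5, 4 and 29.

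Tight junction genes differed by member. *CLDN1*, the barrier-forming claudin of epidermis, was the highest claudin by FPKM, with 439 in leg, 482 in wing and 492 in neck, and had first-table values of 202, 197 and 265. Its wing-against-neck log2 change was -0.23 ± 0.23 (adjusted p = 0.487), and -0.36 after centring (adjusted p = 0.00684). For leg against wing the change was -0.05, and with centring it turned to 0.29 (adjusted p = 0.0118). *TJP3*, which encodes the scaffold ZO-3, had 19 in leg, 5 in wing and 27 in neck, a wing-to-neck log2 ratio of -2.22. *TJP1* (ZO-1) had 47, 44 and 42, so that the ratio of *TJP3* to *TJP1* was 0.404 in leg, 0.114 in wing and 0.643 in neck.

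*CLDN8* and *CLDN17* lie 5982 bases apart on chromosome 1 in the first table (chr1:104403388-104410398 and chr1:104396469-104397405) and both were lowest in wing. *CLDN8* had 28 in leg, 4 in wing and 16 in neck, and *CLDN17* had 80, 29 and 76, with wing-to-neck log2 ratios of -1.77 and -1.36. *CLDN12* had 25, 13 and 30, a log2 ratio of -1.15. Relative to the table median the 4 ratios were -2.14 for *TJP3*, -1.68 for *CLDN8*, -1.28 for *CLDN17* and -1.06 for *CLDN12*. These genes have no value in the second table, and the lowest of them stand on values of 4 and 5. The claudins of the second table other than *CLDN1* were low. *CLDN10* had an FPKM of 0.968, 4.24 and 3.98 in leg, wing and neck, a leg-to-neck log2 ratio of -1.34, *CLDN3* had 1.69, 1.70 and 1.5, and *CLDN2* reached at most 0.583. *CLDN5*, the claudin of endothelium, had 4.25, 7.70 and 3.98. Occludin (*OCLN*) is listed at 0 in all 3 libraries.

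**Figure D4:**
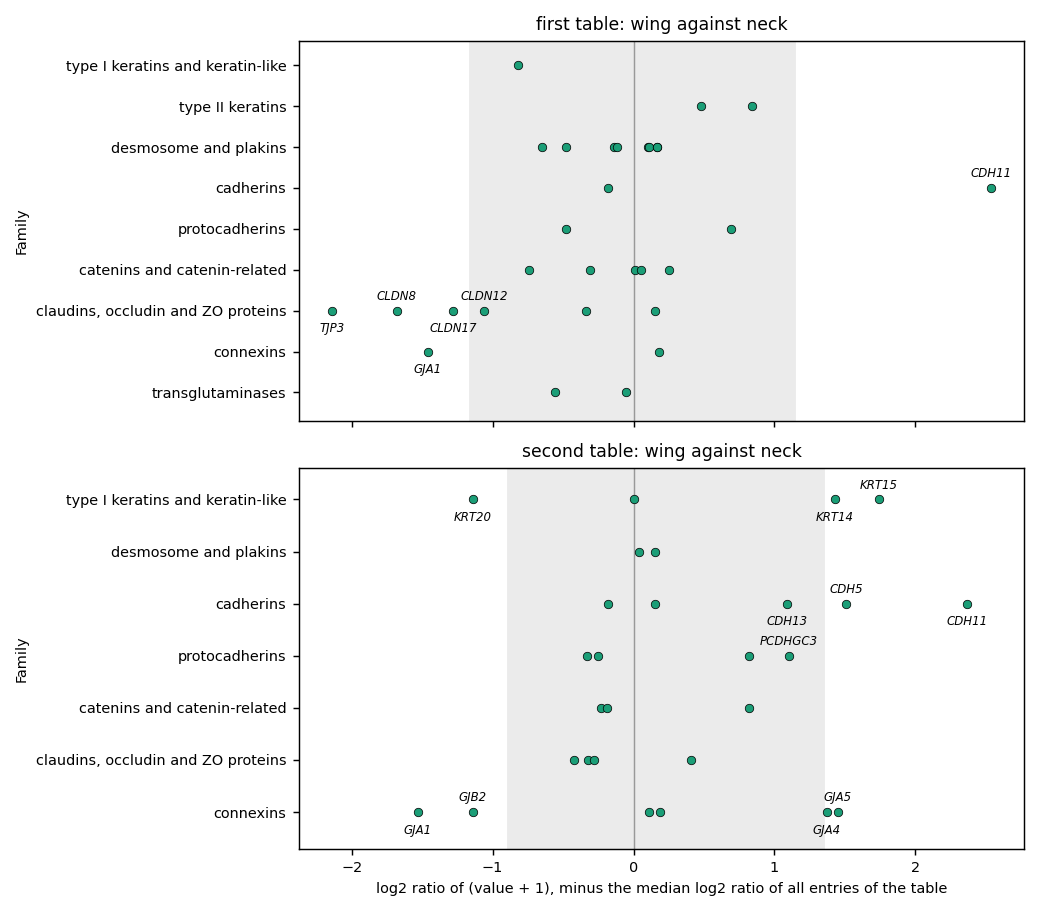
Log2 wing-to-neck ratios of (value + 1), minus the median log2 ratio of all entries of the table, for the genes reported here whose mean reached 1; each point is a gene, rows are families, and the grey band spans percentiles 5 to 95 of all entries. *TJP3*, *CLDN8*, *CLDN17* and *GJA1* lie left of the band and *CDH11* right of it in the first table; in the second *GJA1*, *GJB2* and *KRT20* lie left of it and *KRT14*, *KRT15*, *CDH5*, *CDH11*, *GJA4* and *GJA5* right.

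*GJA1*, which encodes connexin 43, was the most abundant gene of the whole set by FPKM and differed in wing in both tables. It had first-table values of 3236 in leg, 1196 in wing and 3488 in neck (chr3:61929105-61938741), and an FPKM of 7159, 2989 and 6570.4. Among all 6534 entries of the second table it ranked 18 in leg, 49 in wing and 18 in neck. Wing was the lowest region in both tables. The limma log2 change was -1.34 ± 0.36 for wing against neck (adjusted p = 0.00168) and 1.35 ± 0.36 for leg against wing (adjusted p = 8.7e-04), and 0.01 ± 0.36 for leg against neck (adjusted p = 0.993). After centring the first of these changes was -1.47 (adjusted p = 4.1e-04) and the second 1.69 (adjusted p = 2.2e-04). Relative to *CDH1*, *GJA1* stood at 75.3 in leg, 23.9 in wing and 61.0 in neck by FPKM, and at 29.7, 9.80 and 23.7 in the first table.

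The beta connexins *GJB2* (connexin 26) and *GJB6* are neighbours in GRCg7b and are expressed in skin. *GJB2* had first-table values of 101 in leg, 95 in wing and 89 in neck, and an FPKM of 191, 76.7 and 129.7. The tables thus placed its wing value differently, level with the other regions in the first and lowest in the second. Limma called it higher in leg than in wing, by 0.70 ± 0.19 (adjusted p = 9.0e-04), although the log2 ratios of the tables were far apart, 0.09 in the first and 1.31 in the second. *GJB6* had an FPKM of 265, 298 and 209.8, so that the ratio of *GJB6* to *GJB2* was 1.39 in leg, 3.88 in wing and 1.62 in neck.

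*GJA5* and *GJA4*, connexins known from blood vessels, were highest in wing in the second table, whereas *GJA1* was lowest there. *GJA5* (connexin 40, found in arterial endothelium and heart in mammals) had an FPKM of 11.6 in leg, 47.4 in wing and 12.5 in neck, a wing-to-neck log2 ratio of 1.84. *GJA4* had 0.564, 2.91 and 0.152, a log2 ratio of 1.76. Its mean of 1.21 FPKM reached the filter only with the wing value, which comes from a single library. *GJC1* had 1.01, 1.54 and 0.70 FPKM, *GJA3* and *GJB1* stayed under 1, and *GJD2* is listed at 0. Over the 11 connexins of the second table, FPKM summed to 7633 in leg, 3419.7 in wing and 6925 in neck, most of it *GJA1*.

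Several other cadherins had higher values in wing. *CDH11* (OB-cadherin), a cadherin of mesenchymal cells, had 8 in leg, 21 in wing and 3 in neck, and an FPKM of 16.6, 42.6 and 5.41. The order wing, leg, neck was the same in both tables. The first table holds no entry with a mean under 9.67. The *CDH11* mean there, 10.67, was above that level only with the wing value. Its place among the tested genes may thus depend on the wing value that the test compares. Limma gave log2 changes of 2.61 ± 0.23 in wing over neck (adjusted p = 1.9e-27), 1.31 ± 0.23 in leg over neck (adjusted p = 1.0e-06) and -1.30 ± 0.23 in leg over wing (adjusted p = 2.1e-07). With centring they were 2.48, 1.52 and -0.96, all called. *CDH5* (VE-cadherin), the cadherin of endothelium, had an FPKM of 7.90, 12 and 2.48 in leg, wing and neck, with a wing-to-neck log2 ratio of 1.90. *CDH13* (T-cadherin) had 1.05, 2.13 and 0.118, with a log2 ratio of 1.48, and its mean of 1.098 reached the filter only with the wing value.

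Most mesenchyme and endothelium markers were, like *CDH11* and *CDH5*, higher in wing than in neck. *COL1A2*, a fibrillar collagen of connective tissue, had an FPKM of 39.6, 158 and 13.3 in leg, wing and neck, and *KDR*, a receptor of endothelium, had 3.17, 3.44 and 0.699. The mesenchyme gene *FBLN1* went the other way, with 20.8, 14.3 and 19.5 FPKM. *VIM* did so in the first table, with 69, 62 and 75, but not in the second. Of the 12 mesenchyme genes with a mean of at least 1 FPKM, 10 were past the fold upwards in wing against neck, where 15.1% of entries were, and 8 in leg against neck, where 2.93% were. Of the 7 blood and endothelium genes, which include *CDH5* and *CLDN5*, 6 and 3 were, with *CDH5* itself counted in each. Among the 6, *HBAD* had 0.372, 3.74 and 0.234 FPKM, so its mean reached 1 only with the wing value. Relative to the table median of 0.39, *KDR* (log2 ratio 1.38) and *PTPRC* (1.28) were no longer past the fold in wing against neck. The part of these cells in the values of *CDH11*, *CDH5*, *GJA4* and *GJA5* was not tested. The leg-to-neck log2 ratios of these genes in the second table were 1.45, 1.36, 0.44 and -0.10, in that order.

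The remaining cadherins were low. *CDH19*, a cadherin of the Schwann cell and melanocyte lineage, had an FPKM of 1.84 in leg, 2.68 in wing and 1.53 in neck. *CDH20* had 0.159, 2.04 and 0.0253, and *CDH17* had 1.36, 1.34 and 0.254, both with a mean under 1. N-cadherin (*CDH2*) had 0.511, 1.14 and 0.499, *CDH8* had 0.23, 1.02 and 0.178, *CDH4*, *CDH6* and *CDH7* reached at most 0.313, and *CDH10* is listed at 0. The second-table entry named *CDH1-A* is not a cadherin: RefSeq lists that name as an older name of *FZR1*, an activator of the anaphase-promoting complex in the cell cycle. It had an FPKM of 17.5, 27.9 and 21.0, and *FZR1* itself had 11, 13 and 15 in the first table.

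Among protocadherins, *PCDH10* rose in wing. It had first-table values of 13 in leg, 28 in wing and 18 in neck, and an FPKM of 25.1, 63.1 and 26.7, so that wing was highest in both tables. The log2 change was 0.91 ± 0.17 for wing against neck (adjusted p = 1.8e-06) and -1.17 ± 0.17 for leg against wing (adjusted p = 1.6e-10), with 0.78 and -0.83 after centring. *PCDH1*, the other protocadherin in both tables, had 21, 18 and 27 and an FPKM of 42.6, 47.4 and 42.8. It passed no comparison as deposited (adjusted p of 0.371 to 0.897), and passed wing against neck at -0.34 and leg against wing at 0.37 only after centring. *PCDHGC3* had an FPKM of 5.10, 12.5 and 3.81, and *PCDH19* 5.48, 5.76 and 5.48. Of the 19 protocadherins in the second table, 7 are listed at 0 throughout. The clustered alpha genes share constant exons, so their values, at most 0.413 FPKM, are uncertain.

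Transglutaminases cross-link proteins of the cornified envelope, and of the *TGM3* and *TGM6* entries, which only the first table lists, 0 were past the fold in any comparison. With the shares of all entries given above, a count of 0 of 2 does not set them apart. *TGM3*, the epidermal enzyme, had 15 in leg, 20 in wing and 22 in neck, and *TGM6*, which lies 19699 bases from it, had 15, 15 and 24. *TGM2*, the widely expressed tissue enzyme, had an FPKM of 1.40, 0.834 and 0.291, and *TGM4* stayed at 0.449 or less; both had a mean under 1 and were not counted.

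Other genes of the same structures were taken from lists. Of 17 adherens junction partners, 6 were listed with a value in the first table. In wing against neck 0 of these were past the fold, against 5.45% of all entries upwards and 7.85% downwards. The second table listed 5, of which 4 had a mean of at least 1 FPKM. Of these, 2 were past the fold upwards, against 15.1% of entries. *ACTN1* (α-actinin 1) had an FPKM of 71.7 in leg, 157 in wing and 76.4 in neck, and *ARVCF*, a relative of p120-catenin, had 5.19, 14.5 and 6.65. Their log2 ratios of 1.03 and 1.02 were not past the fold relative to the table median of 0.39. Of 19 tight junction partners, 3 and 5 had a value. The junctional adhesion molecule *JAM3* had 171 in leg, 77 in wing and 171 in neck, a wing-to-neck log2 ratio of -1.14, and *JAM2* had 1.48, 2.71 and 0.766 FPKM. *PERP*, a desmosome component and the 1 gene of 3 listed with a value, had 1154, 1359.7 and 1104 FPKM.

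Hemidesmosome genes bind basal keratinocytes to the basement membrane, and 3 of 9 had a value in each table. *COL17A1*, a transmembrane collagen of basal keratinocytes, had 22 in leg, 43 in wing and 14 in neck, and an FPKM of 66.4, 176 and 37.7. It was highest in wing in both tables, as was *ITGA6*, an integrin subunit, with 29, 46 and 29 and an FPKM of 87.0, 112 and 76.2. *DST*, which encodes a cytolinker, was lowest in wing, with 24 in leg, 17 in wing and 28 in neck. *CD151* had 15.2, 33 and 13.3 FPKM.

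Of 13 epithelial regulators, the first table lists 6 and the second 4. *EHF*, an epithelial ETS factor, was past the fold in wing against neck in the first table, with 56 in leg, 24 in wing and 61 in neck, and had 177, 73.8 and 143 FPKM. All 4 of the 6 epithelial-mesenchymal transition factors with a value were past the fold upwards in wing against neck, in a table where 15.1% of entries were, among them *TWIST2* (also on the mesenchyme list) with 7.03, 15.6 and 0.738 FPKM. *TWIST1* had 2.85, 16.6 and 1.16 FPKM, *SNAI1* 1.66, 3.72 and 1.25, and *ZEB1* 1.60, 3.45 and 1.02. Relative to the table median of 0.39, *SNAI1* (log2 ratio 1.07) and *ZEB1* (1.14) were no longer past the fold. *TWIST2* (3.25) and *TWIST1* (3.02) still were, and all these values rest on a single wing library.

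Late differentiation genes were few, 2 of the 15 listed having first-table values and 3 second-table ones. *EDMTFH*, an epidermal differentiation gene of birds, had a value of 7 in leg, 1758 in wing and 1382 in neck. *SPINK5*, a protease inhibitor of the upper epidermis, had an FPKM of 178, 35.4 and 70.3. Of 8 other intermediate filament genes, 3 and 5 had a value. The lamin gene *LMNB1* had 22, 53 and 30, and 76.6, 191 and 84.0 FPKM. Of 3 pannexin genes, *PANX1* alone had a value, with 13, 15 and 18.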

How the data were processed

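The 6 libraries came from leg, wing and neck feathers, 2 labelled replicates per region. The submitters' processing notes name TopHat2 2.1.0, Cufflinks 2.2.1 and the galGal4 build; the annotation and strand setting are not given in the sources used here. The first table was deposited as whole numbers per entry whose unit and scaling are not stated, so these deposited values were treated as a score and not as counts. It holds no entry with a mean under 9.67, 525 entries carry several names and 580 carry none. Its loci include 46 entries on chromosome 33, and the assembly of the loci is not settled. The second table holds FPKM computed by the authors, with 101 rows without values and 765 entries at 0 in all 3 libraries; 1 column of no mapped sample, the mean of the 3, was not used. Neither table gives fragment numbers, so the depth and the precision it allows are unknown.

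Names were matched to RefSeq (GRCg7b, used for names and gene order only) for 30 of 31 and 63 of 68 genes. Genes present once in each table and averaging at least 1 in both (2140) were fitted with limma 3.58.1 in R 4.3.3 (lmFit, eBayes with trend) on log2(value + 1), with Benjamini-Hochberg adjustment over all of them at 0.05. The replicate number was the block. The labels tie each number to 1 table, and deviations from the region means correlated by 0.919 to 0.971 between libraries of the same number. Each deviation is set by the difference between the 2 tables, whose units may differ. The correlation therefore cannot show that libraries of the same number belong together in any other way. The fit has 2 residual degrees of freedom and its spread was pooled over genes. For wing against neck the prior degrees of freedom were infinite. Each SE there was thus taken from genes of similar level and not from the gene's own spread, which makes very small p-values possible with 6 libraries. The fit was tested on simulated data for wing against neck, with independent noise for each library. With no gene changed, 0 were called. With 200 genes changed by a log2 of 1 it recovered 161 and called 2 unchanged genes, and by a log2 of 2, 198 and 10. Beyond the block, the simulation held no effect shared by libraries, so it cannot show whether the calls would hold in other birds.

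Genes named with values were those in both tables, those with the 10 highest means of a table and those past the fold with the 10 largest ratios of a comparison, and from the lists of related genes those past the fold; low or single members were named after their values were seen. The members and lists were chosen with earlier results of these data known. Alternatives were no block, centring, quantile normalization, a pseudocount of 0.1, other filters and folds, 4 libraries of the 2 regions compared, each replicate left out and, added after seeing the data, each gene's own spread. A few genes of the set are counted in the totals but not reported here by name.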

Additional observations from a re-analysis of the deposited data

How the results depend on the processing

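The limma calls depended on the replicate block and on pooling the spread. Without the replicate block the genes called numbered 1 of 12 in wing over neck (*CDH11*), 0 in leg over neck and 0 in leg over wing, in place of 4, 2 and 7. Of all 2140 genes, 9, 0 and 7 were called. An unadjusted limma p under 0.05 was then found for 2, 1 and 2 of the 12, and for 43, 12 and 38 of all genes. With a t-test on each gene's own spread, added after seeing the data, the calls were 0, 0 and 0. Its unadjusted p was under 0.05 for 3, 2 and 5 of the 12, and for 439, 291 and 712 of all 2140 genes. With the 4 libraries of wing and neck alone, 2 were called (*CDH11*, *PCDH10*), and 202 of all 2140 genes. Limma could not be run with a replicate left out, which leaves 1 library per region and no residual degrees of freedom. Of the 36 single changes, 12 lost their call without the block; under centring 1 reversed (*CLDN1*, leg over wing, 0.29), 3 gained a call and 1 lost it; a pseudocount of 0.1 altered none of the calls. Without the filter *KRT5* was called in leg over wing. The second table lists it at 0 in every library, so this call rests on the first table alone.

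Counts past the fold followed the threshold. The shares of all entries given above hold for 2-fold only. None was computed for the other folds and filters, for centring in both tables at once or for a replicate left out. The counts under those settings thus show only how the number moved, not whether these genes differ from all entries. In the first table they were 6 in wing over neck (13 at 1.5-fold, 3 at 3-fold), 1 in leg over neck (4 at 1.5-fold, 0 at 3-fold, 2 with centring) and 7 in leg over wing (2 at 3-fold). In the second they were 12 in wing over neck (6 at 3-fold, 6 with a mean of at least 10), 4 in leg over neck (1 and 1) and 11 in leg over wing (17 at 1.5-fold, 3 at 3-fold, 6 with centring, 7 with a mean of at least 10). In both tables at once they were 2 in wing over neck (4 at 1.5-fold, 1 at 3-fold), 1 in leg over neck (0 at 3-fold) and 3 in leg over wing (0 at 3-fold, 1 with centring). Leaving out 1 replicate leaves a single table, so that the count becomes that of the 12 shared genes past the fold in the table left, and it was 2 to 3 in wing over neck, 1 to 1 in leg over neck and 3 to 4 in leg over wing. The cause of these shifts was not tested. With 1 library per region in a table and depth unknown, low values such as 4 and 5 have no error estimate.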
